A study of Mus musculus with 6 samples.

Results

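The matrix metalloproteinases described here are 10 genes, Mmp2, Mmp3, Mmp8, Mmp9, Mmp10, Mmp11, Mmp12, Mmp13, Mmp14 and Mmp19, taken by symbol from tables that hold 23867 genes. Their transcripts were measured by bulk RNA sequencing in chondrocytes (the cell type of cartilage) from mice, in 3 Mfn2 knockout and 3 wild-type libraries. The knockout is labelled MFN2Col2a1-/- and the wild type MFN2wt. The label joins Mfn2, which encodes the mitochondrial fusion protein mitofusin 2, with Col2a1, a cartilage collagen gene, and the knockout columns read CRE1, CRE2 and CRE3. The sources used here do not give the Cre line, its promoter, the age or strain of the mice, the tissue of origin or the culture. All 10 genes passed the filter on low counts and entered the test.

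Matrix metalloproteinases are zinc-dependent enzymes that cut the proteins around cells. Most are secreted as inactive zymogens, in which a cysteine of the propeptide covers the zinc ion, and become active when the propeptide is removed. Collagenases such as Mmp13 cut the triple helix of cartilage collagen, and stromelysins such as Mmp3 cut proteoglycans and can activate other zymogens of the family. Transcription of several of these genes is known to be switched on by inflammatory cytokines through the AP-1 factors, which are pairs of Fos and Jun proteins. The enzymes are held in check by the tissue inhibitors of metalloproteinases, the Timp proteins.

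Start-site windows are shown for 5 genes, since the inducible members lie in the same cluster on chromosome 9 and short promoter motifs are a known feature of their control. The RefSeq table, of build GRCm38.p6, holds windows of 300 bases, 250 before and 50 after a start site, for 7 of the 10 members and holds none under Mmp2, Mmp9 and Mmp19. The windows shown are those of Mmp3 at chr9:7445572-7445871 on the plus strand, Mmp10 at chr9:7502092-7502391 on the plus strand, Mmp13 at chr9:7272264-7272563 on the plus strand, the second of the windows listed for Mmp12 at chr9:7347124-7347423 on the plus strand and Mmp14 at chr14:54431348-54431647 on the plus strand. Capitals mark the AP-1 motif TGANTCA, the motif TTGCNNAA of the C/EBP factors and TATAAA, each searched on both strands, with no overlap between them.
Mmp3: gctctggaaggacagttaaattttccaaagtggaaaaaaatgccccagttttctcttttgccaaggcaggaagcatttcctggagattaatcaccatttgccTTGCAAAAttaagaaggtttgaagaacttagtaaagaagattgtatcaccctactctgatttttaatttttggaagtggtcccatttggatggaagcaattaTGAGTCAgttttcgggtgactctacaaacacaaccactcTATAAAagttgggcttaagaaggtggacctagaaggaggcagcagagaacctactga
Mmp10: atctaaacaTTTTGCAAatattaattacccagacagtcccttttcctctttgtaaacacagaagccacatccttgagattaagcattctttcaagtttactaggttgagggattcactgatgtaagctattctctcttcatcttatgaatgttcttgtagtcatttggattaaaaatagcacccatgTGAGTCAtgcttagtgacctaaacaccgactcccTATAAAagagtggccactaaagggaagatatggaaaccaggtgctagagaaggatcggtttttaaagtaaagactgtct
Mmp13: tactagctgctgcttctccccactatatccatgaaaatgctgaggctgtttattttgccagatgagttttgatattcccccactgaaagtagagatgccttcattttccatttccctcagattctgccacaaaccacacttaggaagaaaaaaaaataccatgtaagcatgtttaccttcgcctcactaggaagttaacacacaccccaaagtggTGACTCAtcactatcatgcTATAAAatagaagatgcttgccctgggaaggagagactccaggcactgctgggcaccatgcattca
Mmp12: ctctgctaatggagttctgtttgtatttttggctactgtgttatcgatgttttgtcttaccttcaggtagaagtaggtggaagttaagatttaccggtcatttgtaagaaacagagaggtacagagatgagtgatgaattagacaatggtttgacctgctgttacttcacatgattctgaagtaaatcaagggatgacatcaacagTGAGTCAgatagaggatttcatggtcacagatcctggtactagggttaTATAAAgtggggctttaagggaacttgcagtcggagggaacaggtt
Mmp14: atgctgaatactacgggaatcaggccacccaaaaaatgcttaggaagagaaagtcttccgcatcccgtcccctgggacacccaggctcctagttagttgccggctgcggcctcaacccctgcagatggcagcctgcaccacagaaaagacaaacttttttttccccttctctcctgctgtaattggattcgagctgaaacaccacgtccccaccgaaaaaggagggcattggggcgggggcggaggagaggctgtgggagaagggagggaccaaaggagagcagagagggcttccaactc

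The AP-1 motif began 46 bases before the listed start in Mmp3, 63 before it in Mmp10, 35 before it in Mmp13 and 44 before it in the Mmp12 window. TATAAA followed it in each of these 4 windows. A C/EBP motif lay 148 bases before the start in Mmp3 and, on the other strand, 241 bases before it in Mmp10. The first Mmp12 window, which is not shown, held neither the AP-1 motif nor TATAAA. It held a C/EBP motif on the other strand, 39 bases before its own start. The Mmp14 window held none of the 3 motifs, and neither did that of Mmp11. The Mmp8 window, also in the cluster but not shown, held TATAAA and a C/EBP motif but no AP-1 motif. Over all 32851 windows of the table, 7.81% held the AP-1 motif, 10.8% the C/EBP motif and 13.6% TATAAA. These are matches of letters, not sites shown to be bound.

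Levels are given as CPM after edgeR's TMM normalization, a measure relative to library size, or as the authors' FPKM, which are also scaled by gene length and so allow comparison between genes. Fold changes are knockout over wild type from edgeR's quasi-likelihood test over 15028 genes. SE is the standard error of that log2 value, and adjusted p-values are Benjamini-Hochberg values over all of these genes. Values after ± are SDs over n = 3 libraries. Nothing in the labels tells separate animals or cultures from repeat libraries, and the p-values rest on the spread between libraries, which may be technical. Knockout columns totalled 31481779 to 37814723 counts, against 39267487 to 40152687 for wild-type columns. Mfn2 itself stood at 64.0, 56.5 and 59.4 CPM in the knockout libraries, against 108, 108 and 106 CPM in the wild-type libraries.

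Of the 10 members, 5 rose (Mmp3, Mmp13, Mmp10, Mmp8 and Mmp9), 2 fell (Mmp12 and Mmp11) and 3 (Mmp2, Mmp14 and Mmp19) did not pass the test at an adjusted p under 0.05. Over all genes tested, 30.7% were called higher and 32.1% lower, so calls in either direction were common. The counts given below for each gene list are to be read beside these shares. The median log2 fold change was 1.02 over the 10 members and -0.021 over all genes tested. The 4 stromelysins and collagenases that are known as inducible (Mmp3, Mmp10, Mmp8 and Mmp13) all rose, with a median of 3.37. Among the 6 constitutive or macrophage-made members, 1 rose (Mmp9), 2 fell and 3 were not called, with a median of -0.011. The members and lists were chosen with earlier results of these data known, so the contrast of these 2 groups is a description and not a test. The same 5 members that rose, and the same 2 that fell, were those whose knockout and wild-type libraries did not overlap, which held for 67.1% of all genes tested, 32.3% upward and 34.8% downward.

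**Figure D1:**
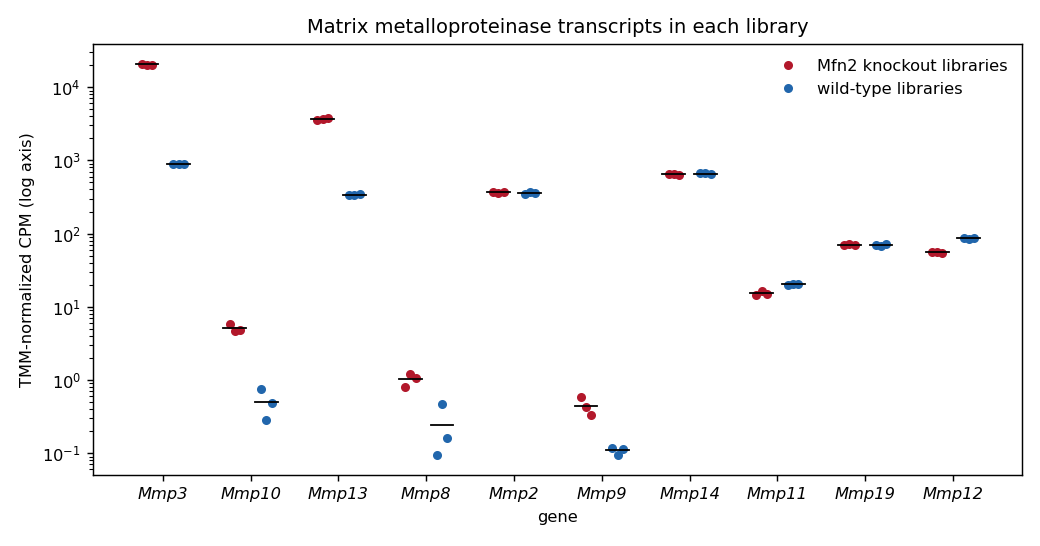
TMM-normalized CPM of the 10 members (log axis) in the 3 Mfn2 knockout libraries (red, left of each pair) and the 3 wild-type libraries (blue, right), with black lines at the group means. Mmp3 is near 20517 CPM in knockout cells against 898 CPM in wild-type cells, while the points of Mmp2, Mmp14 and Mmp19 overlap between the groups.

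Mmp3, the stromelysin that cuts aggrecan and activates other zymogens of the family, was the most abundant member in both groups. It had 21004, 20168 and 20380 CPM in libraries CRE1 to CRE3, against 901, 900.3 and 892 CPM in libraries WT1 to WT3. Every knockout library was far above every wild-type library, and the libraries of each group lay close together. EdgeR's quasi-likelihood test gave a log2 fold change of 4.51 (SE 0.023, adjusted p = 2.93e-22), the 47th largest rise of all genes tested. Mmp3 took 1.94%, 1.89% and 1.89% of all counts in the knockout libraries, against 0.0967%, 0.0968% and 0.0960% in the wild-type libraries. By FPKM it ranked number 2 of all genes in each of the 3 knockout libraries and between 90 and 97 in the wild-type libraries.

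Mmp10, a stromelysin close in sequence to Mmp3, was expressed at a much lower level. Its counts were 167, 164 and 144 in CRE1, CRE2 and CRE3, against 32, 12 and 21 in WT1, WT2 and WT3. In CPM this was 5.74, 4.63 and 4.79 in the knockout libraries, against 0.750, 0.284 and 0.486 in the wild-type libraries. The groups did not overlap, and relative to their mean the wild-type libraries were the more scattered. EdgeR's quasi-likelihood test gave a log2 fold change of 3.31 (SE 0.266, adjusted p = 2.55e-08). The longest transcripts of Mmp3 and Mmp10 in GENCODE M21 share an identical run of 104 bases, so reads could be exchanged between them. For every 1000 counts of Mmp3 there were 0.273, 0.230 and 0.235 counts of Mmp10 in the knockout libraries, against 0.833, 0.316 and 0.545 in the wild-type libraries, and the separate value of Mmp10 is uncertain to the extent of such an exchange.

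Mmp13, the collagenase of cartilage and of hypertrophic chondrocytes, was the second member by level in the knockout. It had 3599, 3675 and 3744 CPM in libraries CRE1 to CRE3, against 339, 334 and 343 CPM in libraries WT1 to WT3. The groups lay far apart and each was tight. EdgeR's quasi-likelihood test gave a log2 fold change of 3.44 (SE 0.026, adjusted p = 3.35e-20). By FPKM Mmp13 ranked 30, 30 and 29 among all genes in the knockout libraries, against 399, 409 and 394 in the wild-type libraries. Its rise was smaller than that of Mmp3: the ratio of Mmp3 to Mmp13 FPKM was 8.67, 8.15 and 8.08 in the knockout libraries, against 3.95, 4.01 and 3.86 in the wild-type libraries. An exact permutation test of this ratio gave p = 0.1 (two-sided, 3 libraries against 3), the smallest value that the 20 splits allow and the same after adjustment over 4 ratios tested. Each of the 4 ratios gave this value, also that of Mmp14 to Mmp2, with a log2 difference of only -0.065. The test thus cannot tell a large difference from a small one here.

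Mmp8, the collagenase best known from neutrophils, was detected at the edge of the count range. Its counts were 23, 43 and 32 in CRE1, CRE2 and CRE3, against 4, 20 and 7 in WT1, WT2 and WT3. In CPM the knockout libraries had 0.790, 1.21 and 1.06, against 0.0938, 0.474 and 0.162 in the wild-type libraries, so the groups did not overlap but WT2 stood above the other wild-type libraries. EdgeR's quasi-likelihood test gave a log2 fold change of 2.07 (SE 0.491, adjusted p = 0.00181), and it was 2.97 without WT2. Mmp1a and Mmp1b, the mouse genes related to the human collagenase MMP1, had 7, 7 and 1 and 9, 9 and 1 counts in CRE1, CRE2 and CRE3. In WT1, WT2 and WT3 the counts were 0, 0 and 1 for Mmp1a and 0 in each library for Mmp1b. Both were too low to be tested, and their transcripts share an identical run of 134 bases.

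**Figure D2:**
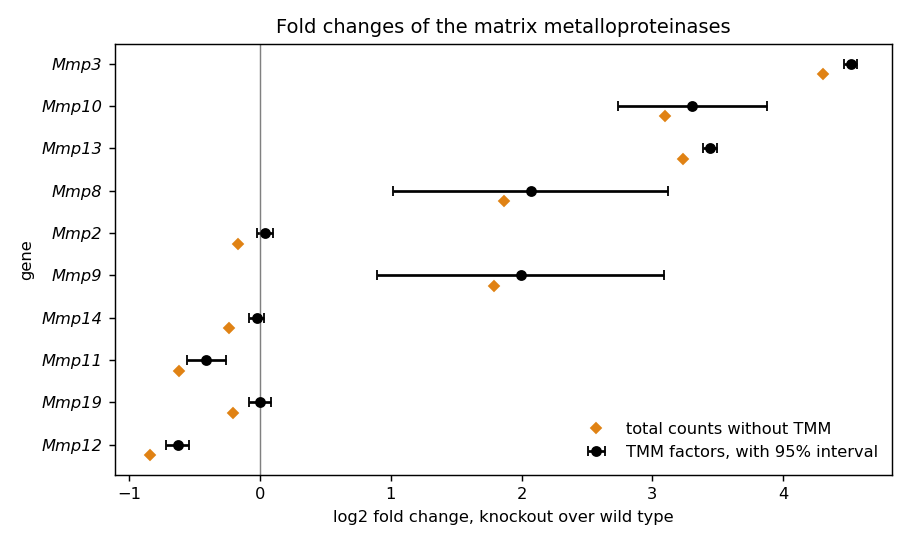
Log2 fold change, knockout over wild type, of each member with TMM factors (black, bars are 95% intervals of the edgeR estimate) and with total counts alone (orange diamonds). Mmp3, Mmp13, Mmp10, Mmp8 and Mmp9 lie above 0 under both scalings, while Mmp2, Mmp14 and Mmp19 lie near 0 with TMM factors and below 0 with total counts.

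The gelatinases Mmp2 and Mmp9 differed in level and in call. Mmp2, a gelatinase made by many connective tissue cells, had 367, 360 and 368 CPM in libraries CRE1 to CRE3, against 347, 364 and 354 CPM in libraries WT1 to WT3. These ranges overlapped, and the log2 fold change of 0.042 (SE 0.029, 95% interval -0.021 to 0.104, adjusted p = 0.23, edgeR quasi-likelihood test) was not called. Mmp9, a gelatinase known from macrophages, neutrophils and osteoclasts, had only 17, 15 and 10 counts in the knockout libraries, against 5, 4 and 5 in the wild-type libraries. It was called higher (log2 fold change 1.99, SE 0.514, adjusted p = 0.00328, edgeR quasi-likelihood test), at 0.584, 0.424 and 0.332 CPM in knockout cells against 0.117, 0.0947 and 0.116 CPM in wild-type cells.

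Mmp14, the membrane-bound enzyme that activates the zymogen of Mmp2 at the cell surface, was the second member by FPKM in the wild type. It had 660, 655 and 637 CPM in libraries CRE1 to CRE3, against 663, 669.7 and 650.0 CPM in libraries WT1 to WT3. The ranges overlapped, and the log2 fold change was -0.023 (SE 0.027, 95% interval -0.080 to 0.034, adjusted p = 0.471, edgeR quasi-likelihood test). Mmp19, which cuts basement membrane proteins among others, had 68.8, 71.0 and 70.0 CPM in the knockout libraries, against 70.6, 68.1 and 71.1 CPM in the wild-type libraries, with a 95% interval of -0.086 to 0.088 for the log2 fold change. For Mmp2, Mmp14 and Mmp19 the result depended on the scaling. On the FPKM scale, which divides by the column total, Mmp14 stood at 160.4, 161 and 156 in the knockout against 187, 189.5 and 184 in the wild type, and the groups no longer overlapped. With total counts alone in the edgeR fit all 3 were called lower, at -0.17 for Mmp2, -0.23 for Mmp14 and -0.21 for Mmp19. That setting moved the median of all genes by -0.209, which is about the size of these values, and the share of rises among all calls was 26.8% with it against 48.9% with TMM factors.

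Mmp11, the stromelysin that is activated inside the cell by furin, had 14.3, 16.3 and 15.1 CPM in libraries CRE1 to CRE3, against 19.9, 20.6 and 20.2 CPM in libraries WT1 to WT3. Every knockout library was below every wild-type library. EdgeR's quasi-likelihood test gave a log2 fold change of -0.41 (SE 0.070, adjusted p = 0.00011), and it was lower under each scaling tried.

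Mmp12, the macrophage elastase, fell by 0.63 on the log2 scale (SE 0.040, adjusted p = 1.67e-09, edgeR quasi-likelihood test). It had 56.3, 56.7 and 55.1 CPM in libraries CRE1 to CRE3, against 87.9, 84.7 and 86.9 CPM in libraries WT1 to WT3, with tight groups that did not overlap. Markers of macrophages fell in the same libraries: all 16 listed markers were called lower, with a median log2 fold change of -4.55 and a range of -6.32 to -1.39, so that each of them fell by more than Mmp12. Their summed FPKM was 244 to 255 in the knockout libraries and 2520 to 2540 in the wild-type libraries. The lysozyme Lyz2 (229 ± 9.25 CPM in the knockout, 1747 ± 24.9 in the wild type) and the lysosomal protein Cd68 (15.5 ± 1.39 and 145 ± 1.74 CPM) had the highest FPKM of them. Aif1 was close to 0 in the knockout, with 1, 2 and 0 counts in CRE1, CRE2 and CRE3 against 123, 103 and 90 in WT1, WT2 and WT3. In FPKM, Mmp12 was 0.0540, 0.0561 and 0.0557 of the summed markers in the knockout libraries, against 0.00985, 0.00958 and 0.00984 in the wild-type libraries (exact permutation test, two-sided, p = 0.1, the smallest the design allows). In bulk RNA, fewer cells of a type and less RNA per cell cannot be told apart, and the part of the macrophage transcripts in the fall of Mmp12 was not tested.

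Neutrophils and osteoclasts are other cells known for Mmp8 or Mmp9. Of 11 neutrophil markers 4 were tested, of which 2 were higher, 1 was lower and 1 was not called. Among those not tested, Mpo, Elane and Ly6g had at most 1 count in any library. The calprotectin subunit S100a8 (log2 fold change 3.50, SE 0.385) and the cathelicidin Camp (4.25, SE 0.302) were called higher at 2.51 ± 0.427 and 3.48 ± 0.441 CPM in knockout cells, against 0.218 ± 0.143 and 0.179 ± 0.034 CPM in wild-type cells, while the receptor Csf3r was called lower (-1.78). Without WT1 the value of S100a8 was 4.12. S100a9, the other calprotectin subunit, was not called (-0.68, adjusted p = 0.49, edgeR quasi-likelihood test), with 2, 7 and 9 counts in CRE1, CRE2 and CRE3 against 18, 21 and 0 in WT1, WT2 and WT3. The summed CPM of the 11 neutrophil markers was 6.12 to 6.84 in the knockout libraries and 1.60 to 1.92 in the wild-type libraries, most of it in the knockout from S100a8 and Camp. Osteoclast markers were more abundant, with a summed CPM of 201 to 220 in the knockout libraries and 234 to 239 in the wild-type libraries. Most of this sum was the protease Ctsk, at 178 ± 9.26 CPM in knockout cells and 169 ± 2.11 CPM in wild-type cells. Of 5 tested osteoclast markers, 1 was higher (Acp5, 0.62) and 3 were lower (Tnfrsf11a at -6.43, Atp6v0d2 at -3.98 and Nfatc1 at -0.50). Ctsk was not called (0.074, adjusted p = 0.108, edgeR quasi-likelihood test), though it was called higher without CRE3 (0.12) and lower with total counts alone (-0.14). The part of these cells in the rises of Mmp8 and Mmp9 was not tested.

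The genes of the family that lie together on chromosome 9 did not move as a block. In the RefSeq order (build GRCm38.p6, the order alone being used) the cluster runs Mmp13, Mmp12, Mmp1b, Mmp3, Mmp1a, Mmp10, Mmp8, Mmp27, Mmp20 and Mmp7. Mmp12, which fell, lies between Mmp13 and Mmp3, which both rose. The rises of Mmp3, Mmp10 and Mmp8 were followed by Mmp27, whose log2 fold change of 0.42 was not called (SE 0.266, adjusted p = 0.183, edgeR quasi-likelihood test). Mmp7 had 0 to 3 counts in each library, and Mmp20 was not analysed here. The AP-1 motif was found in the windows of Mmp13, Mmp12 (1 of its windows), Mmp1b, Mmp3, Mmp1a, Mmp10 and Mmp7 in this cluster, whichever way they moved, and in none of the other family windows listed.

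**Figure D3:**
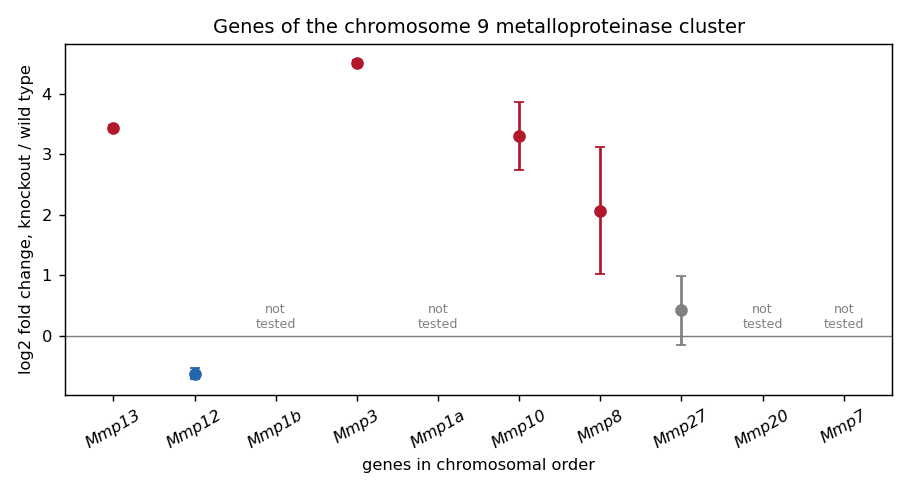
Log2 fold change, knockout over wild type, with 95% intervals, for the genes of the chromosome 9 cluster in chromosomal order (red called higher, blue called lower, grey not called). Mmp12 at -0.63 stands between Mmp13 at 3.44 and Mmp3 at 4.51, and genes with too few counts or no row are written as not tested.

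The makeup of the family's transcripts shifted with these changes. Summed over the 21 metalloproteinase genes in the table, FPKM came to 12356, 12103 and 12148 in CRE1, CRE2 and CRE3, against 1064, 1072 and 1064 in WT1, WT2 and WT3. Mmp3 made up 86.8% ± 0.376 of this sum in knockout cells and 50.2% ± 0.190 in wild-type cells, and Mmp13 made up 10.5% ± 0.351 in knockout cells and 12.8% ± 0.238 in wild-type cells. Mmp14 held 1.30% ± 0.026 in knockout cells and 17.5% ± 0.194 in wild-type cells, and Mmp2 held 0.869% ± 0.011 and 11.2% ± 0.241. By counts in place of FPKM the direction for Mmp13 turned, with 14.4% in knockout cells and 13.4% in wild-type cells. With Mmp3 and Mmp13 left out, the rest of the family summed to 328 to 332 FPKM in the knockout libraries and 391 to 400 FPKM in the wild-type libraries. The FPKM divide by the column total, so the size of this difference depends on the scaling. In TMM-normalized CPM, the 6 constitutive or macrophage-made members summed to 1145 to 1167 in the knockout libraries and 1182 to 1207 in the wild-type libraries.

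**Figure D4:**
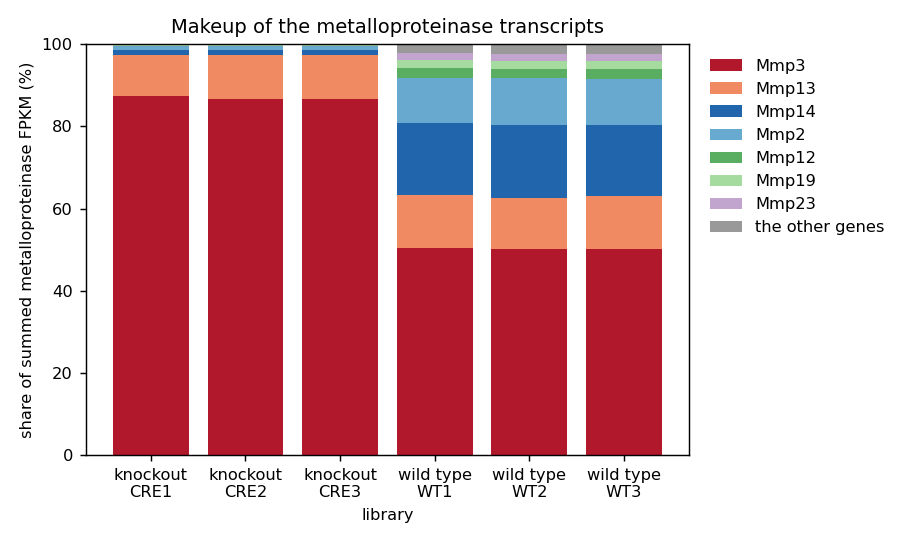
Share of each gene in the summed FPKM of the 21 metalloproteinase genes (percent) in the 3 knockout libraries (left) and the 3 wild-type libraries (right). Mmp3 fills 86.8% of the bar on average in knockout cells and 50.2% in wild-type cells, and the shares of Mmp14 and Mmp2 are correspondingly narrow in the knockout.

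The order of levels, by FPKM, was Mmp3, Mmp13, Mmp14, Mmp2, Mmp19, Mmp12, Mmp11, Mmp10, Mmp8 and Mmp9 among the members in the knockout. In the wild type it was Mmp3, Mmp14, Mmp13, Mmp2, Mmp12, Mmp19, Mmp11, Mmp10, Mmp8 and Mmp9. Neighbouring members in the knockout order had ranges that did not overlap over the 3 libraries. The same held in the wild type except for Mmp10 and Mmp8, at 0.176 to 0.464 and 0.0410 to 0.208 FPKM. Mmp13 and Mmp14 changed places, as did Mmp12 and Mmp19.

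The list of other metalloproteinases holds 13 genes, of which 11 were in the table and 7 passed the filter. Mmp16 and Mmp17, membrane-bound enzymes, were called higher, and Mmp15, another membrane-bound enzyme, and Mmp23 were called lower. Mmp23 had 22.1 ± 1.59 CPM in knockout cells and 43.8 ± 0.365 CPM in wild-type cells (log2 fold change -0.99, SE 0.057), and Mmp16 had 44.8 ± 3.05 and 34.1 ± 2.59 CPM (0.39, SE 0.064). Mmp15 stood at 0.750 ± 0.160 CPM in knockout cells and 2.08 ± 0.366 CPM in wild-type cells (-1.45, SE 0.277). Mmp24, Mmp27 and Mmp28 were not called, at 1.03, 0.42 and -0.24, and Mmp28 was called lower with upper-quartile factors (-0.33), with total counts alone (-0.45), on the FPKM settings (-0.43 to -0.32) and without CRE3 (-0.30). The rise of Mmp17 (0.84, SE 0.252) rested on 80, 100 and 80 counts in the knockout libraries, against 94, 47 and 56 in the wild-type libraries. Mmp25 had 0 counts in each knockout library and 3, 8 and 5 in WT1, WT2 and WT3, and was not tested.

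Inhibitors of the enzymes went both ways. Of 6 tested, Timp1 and the plasma protease trap A2m rose and Timp2, Timp3, Timp4 and the membrane-bound Reck fell (median -0.49). Timp1 had 2331 ± 47.6 CPM in knockout cells and 692 ± 14.4 CPM in wild-type cells (log2 fold change 1.75, SE 0.026), Timp3 had 3914 ± 89.0 and 7431 ± 72.0 CPM (-0.92, SE 0.022), and Reck had 149.8 ± 3.48 and 374 ± 6.45 CPM (-1.32, SE 0.032). The fall of Timp2 was small (-0.062, adjusted p = 0.0224, edgeR quasi-likelihood test), and the call was lost with DESeq2 (-0.049, adjusted p = 0.167) and without any of CRE2, CRE3, WT1, WT2 or WT3 (-0.066 to -0.039). In FPKM, the ratio of Mmp3 to Timp1 was 4.36, 4.29 and 4.40 in CRE1, CRE2 and CRE3, against 0.655, 0.645 and 0.623 in WT1, WT2 and WT3. The summed FPKM of the 21 metalloproteinases was 3.03 ± 0.026 times that of Timp1 to Timp4 in the knockout and 0.302 ± 0.002 times in the wild type. These are ratios of transcripts and carry no information on active enzyme.

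The list for activation of the zymogens holds, among others, plasminogen activators and the urokinase receptor gene Plaur. Of its 10 tested genes, 4 were higher, 4 lower and 2 not called. Over all genes tested 30.7% were called higher and 32.1% lower, so this split lay near those shares. The proprotein convertase Pcsk5 rose (log2 fold change 2.13, SE 0.058) and its relative Pcsk6 fell (-2.08, SE 0.048). The plasminogen activator Plat rose (1.77, SE 0.049), with 123 ± 7.03 CPM in knockout cells and 35.9 ± 0.948 CPM in wild-type cells, while Plau, the urokinase-type activator, fell (-2.39). Furin, the convertase that cuts the propeptides of Mmp11 and Mmp14, rose by 0.27, a call lost with total counts alone (0.06). Plg, which encodes plasminogen, had no counts in the knockout libraries and a single count in WT3.

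Of 10 genes for clearance receptors and surface partners, 7 rose and 3 fell (median 0.39), and the rise of Ddr2 (0.18) turned to -0.027 with total counts alone. The proteoglycan Sdc4 (1.27, SE 0.027) and the integrin subunit Itgav (0.96, SE 0.029) rose, and the matrix protein Thbs1 fell (-1.36, SE 0.025), with 3233 ± 109.5 CPM in knockout cells and 8292 ± 127 CPM in wild-type cells. Lrp1, the endocytic receptor that takes up Mmp13, rose by 0.44, and Bsg, a surface protein known to induce metalloproteinases in neighbouring cells, rose by 0.80.

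The list of cytokines and receptors of the inducing pathways, which also holds the antagonist Il1rn, had 15 tested genes, of which 11 rose and 4 fell (median 0.67). On filtered FPKM 6 were called higher. Fewer of the low genes are tested there, and the receptor genes Tnfrsf1a (0.044) and Fgfr1 (0.024 to 0.025) lost their call. With total counts alone both calls were also lost (0.044 and 0.025). Il6 rose (5.17, SE 0.121), with 40.3 ± 1.41 CPM in knockout cells and 1.11 ± 0.351 CPM in wild-type cells. Il1a and Il1b, ligands of the interleukin-1 receptor, were also called higher (4.09 and 4.64), from few counts, and the value of Il1a was 6.03 without WT2. Il1b had 37, 39 and 24 counts in CRE1, CRE2 and CRE3, against 1, 2 and 2 in WT1, WT2 and WT3. Il1rn, the antagonist of that receptor, fell (-2.63, SE 0.030), with 147 ± 3.76 CPM in knockout cells and 909 ± 6.53 CPM in wild-type cells. Tgfb1 fell (-1.38, SE 0.052), as did Tnf (-3.50) and the receptor chain Il17ra (-0.27). Macrophage markers moved with these genes (median -4.55), and their part in the falls of Il1rn and Tnf was not tested.

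The AP-1 factors went both ways, with 5 of 9 higher and 4 lower (median 0.83). Fosl1 rose (2.43, SE 0.081), with 31.9 ± 2.79 CPM in knockout cells and 5.92 ± 0.079 CPM in wild-type cells. Jun (1.47, SE 0.035) and Junb (1.73, SE 0.045) rose, as did Jund (0.97) and Fosl2 (0.83), while Fos (-1.17), Fosb (-0.65), Batf (-1.03) and Atf3 (-0.42) fell. The call of Batf was lost without CRE1 (-0.66), CRE2 (-0.91), WT1 (-0.98) or WT2 (-0.94), and without CRE3 its value was -1.67. The list of other transcription factors known for metalloproteinase genes also holds Nfkbia, an inhibitor of NF-kB, which rose (1.13). Of its 17 tested genes, 12 rose, 3 fell and 2 were not called (median 0.54). Other settings called 8 to 12 of them higher. The calls of Nfkb2 (0.29) and Runx1 (0.26) were lost with total counts alone (0.081 and 0.052). The C/EBP factors Cebpd (2.23, SE 0.037) and Cebpb (1.30, SE 0.049) and the NF-kB cofactor Nfkbiz (2.47, SE 0.041) rose, and Ets1 rose by 1.29. Several of the AP-1 genes also answer to tissue dissociation: of 12 listed dissociation-response genes 7 rose and 5 fell (median 0.81), with Ier3 (3.31) and Dusp1 (1.41) the most abundant of them, and their part in the rises of the metalloproteinases was not tested.

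Matrix proteins that these enzymes cut, mainly those of cartilage but with Col1a1, Col1a2 and Col3a1 on the list, mostly fell. Of 18 genes, 12 were lower, 5 higher and 1 not called (median -0.37). The rise of Fn1 (0.17) turned to -0.041 with total counts alone. Col2a1 fell (-2.74, SE 0.036) and so did the proteoglycan core Acan (-2.85, SE 0.044), which had 49.0 ± 1.55 CPM in knockout cells and 352 ± 17.9 CPM in wild-type cells. The small proteoglycan Dcn rose (1.68, SE 0.027), with 6563 ± 225 CPM in knockout cells and 2047 ± 46.6 CPM in wild-type cells. In FPKM, Mmp13 was 12.5, 14.1 and 14.4 times Col2a1 in CRE1, CRE2 and CRE3, against 0.192, 0.181 and 0.192 times in WT1, WT2 and WT3. The 13 chondrocyte markers were detected in all libraries and were all called lower (median -1.45). Most of them are also on the substrate list, so the counts of these lists overlap. The chondrocyte list does not hold the cartilage matrilin Matn1 or the lubricin gene Prg4, which are among the 5 substrates that rose (1.30 and 1.64). Matn1 had 195 ± 4.66 CPM in knockout cells and 79.3 ± 1.93 CPM in wild-type cells. In the same libraries macrophage markers fell (median -4.55).

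**Figure D5:**
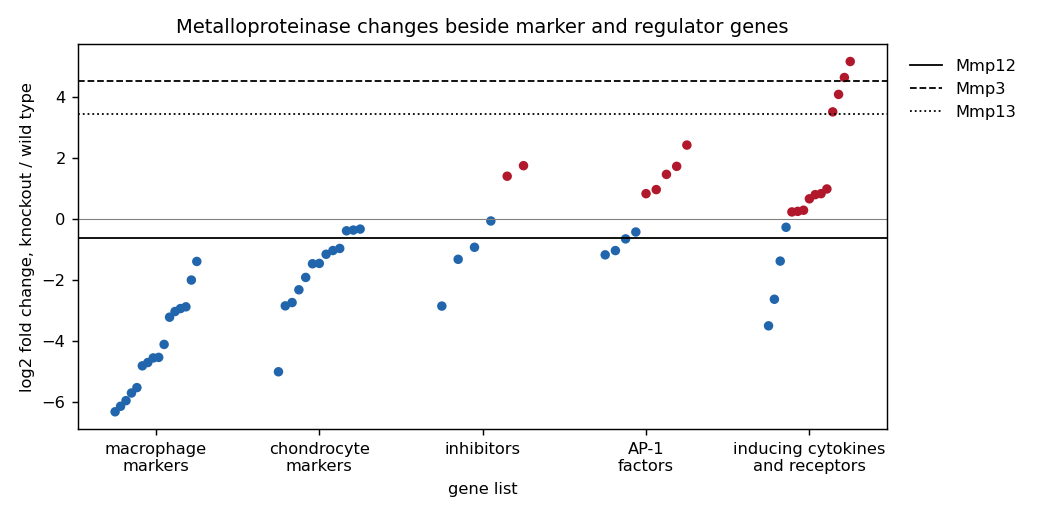
Log2 fold change, knockout over wild type, of the tested genes of 5 lists (points, red called higher, blue called lower), with lines at the values of Mmp12, Mmp3 and Mmp13. The 16 macrophage markers lie at or below -1.39, under the line of Mmp12 at -0.63, and among inhibitors and AP-1 factors no gene reaches the line of Mmp13 at 3.44.

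The genes whose profile over the 6 libraries was nearest to a member, by Euclidean distance of centred log2 CPM with 0.5 added among 12186 genes, are given as a description. For Mmp3 they were the prostaglandin synthase Ptgs2 (distance 0.282), H2-Q2 (0.308) and Plppr3 (0.434), with log2 fold changes of 4.82, 7.05 and 4.47. H2-Q2 is a class I histocompatibility gene with near-identical copies, so its counts are uncertain, and at 0.0857 CPM in wild-type cells the added 0.5 shrinks its difference to near that of Mmp3. For Mmp13 they were the monocarboxylate transporter Slc16a1 (0.152), the lipoprotein lipase inhibitor Angptl4 (0.160) and Kbtbd11 (0.164), with log2 fold changes of 3.35, 3.36 and 3.44. For Mmp12 they were Ppfibp1 (0.036), Slc66a3 (0.036) and the phosphatidylcholine transfer protein Pctp (0.047), which fell by 0.62, 0.61 and 0.68 on the log2 scale. These distances carry no test.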

How the data were processed

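RNA was isolated from the chondrocytes with TRIzol before sequencing, per the labels' protocols. The authors deposited whole-number read counts per gene and FPKM values for 23867 gene symbols in 6 columns. Per the submitters' processing notes, the tools were HISAT2, HTSeq and fastp and the build GRCm39, with no versions, annotation or strand setting. The deposited FPKM carry no scaling beyond depth and length: the length implied by count, total and FPKM was equal across libraries within 1% for 15506 of 15506 genes with at least 10 counts in 2 or more libraries. Knockout columns could be tied to their group only, not to single samples, and the main test is unpaired. No library was a copy of another (chi-square per degree of freedom 3.12 to 7.65 between libraries of a group).

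The main test was the two-sided quasi-likelihood test of edgeR 4.0.16 (R 4.3.3) with TMM factors and no covariate, on the 15028 genes that filterByExpr kept at a minimum count of 10. Calls are genes with Benjamini-Hochberg adjusted p below 0.05. The SE is the log2 fold change divided by the square root of F, and 95% intervals use the fit's t quantile. The biological coefficient of variation was 4.88%. Alternatives were DESeq2 1.42.0, limma-voom (limma 3.58.1), other scalings and filters, a replicate block, each library left out, and limma on log2(FPKM + 1) and log2(FPKM + 0.1). The members and lists were chosen with earlier results of these data known. Named genes are the members, the other metalloproteinases, the 3 members of each regulator list with the smallest p, the 2 most abundant markers of each marker list, and the 3 nearest profiles of Mmp3, Mmp13 and Mmp12. Other genes named were chosen after their values were seen. Promoter windows come from RefSeq (GRCm38.p6) and transcript comparisons from GENCODE M21, so no coordinates of the authors' build are given. Counts cannot separate overlapping or antisense genes, since the strand setting is not known.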

Additional observations from a re-analysis of the deposited data

How the results depend on the processing

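For the 7 members called in the main test, all 120 values under the other settings kept direction and call. Leaving out a library gave log2 fold changes of 4.50 to 4.54 for Mmp3, 3.02 to 3.70 for Mmp10, 3.43 to 3.46 for Mmp13, 1.68 to 2.97 for Mmp8, 1.77 to 2.18 for Mmp9, -0.45 to -0.36 for Mmp11 and -0.64 to -0.60 for Mmp12. Mmp8 and Mmp9 rest on few counts, and log2(FPKM + 1) without a filter gave 0.33 and 0.11, a scale that understates the change of low genes. The 3 members not called depended on the scaling. Mmp2 had -0.049 (adjusted p = 0.16) with upper-quartile factors, -0.17 with total counts alone and -0.17 with limma on log2(FPKM + 1), with and without a filter, and on log2(FPKM + 0.1). Mmp14 was called lower with upper-quartile factors (-0.11) and at -0.23 with total counts and on the 3 FPKM settings, and leaving out a library gave -0.036 to 0.0054. Mmp19 had -0.090 with upper-quartile factors, -0.21 with total counts, -0.20 on log2(FPKM + 1) with and without the filter, -0.21 on log2(FPKM + 0.1), -0.0054 without a filter on counts, -0.0044 with a CPM above 1 in 3 libraries, and -0.019 to 0.018 with a library left out.

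Members called higher numbered 3 in place of 5 with a CPM above 1 in 3 libraries and on filtered FPKM, since Mmp8 and Mmp9 do not pass those filters. Members called lower numbered 5 in place of 2 with total counts and on the 3 FPKM settings. All genes called higher (4607) numbered 2791 with total counts, 2354 and 2345 on filtered log2(FPKM + 1) and log2(FPKM + 0.1) and 2706 on unfiltered log2(FPKM + 1). Those called lower (4823) numbered 7625 with total counts and 7328 on unfiltered log2(FPKM + 1). Shares by counts in place of FPKM were 80.7% and 35.6% for Mmp3 and 14.4% and 13.4% for Mmp13 in knockout and wild type, which turned the direction for Mmp13. Of the other single genes of all lists, 42 of 2527 values turned and 55 lost their call. With total counts, limma on filtered log2(FPKM + 1) and log2(FPKM + 0.1) and on unfiltered log2(FPKM + 1), in this order, values were -0.14, -0.13, -0.14 and -0.13 for Ctsk, -0.20 in all 4 for Col1a1, -0.13, -0.12, -0.13 and -0.12 for Ets2, -0.19, -0.15, -0.18 and -0.15 for Pcsk7 and -0.13, -0.11, -0.13 and -0.11 for Plaur. Called higher in the main test, Ddr2 turned to -0.027, -0.027, -0.027 and -0.027, Fn1 to -0.041, -0.042, -0.042 and -0.042 and Dpt to -0.032, -0.030, -0.031 and -0.030, none of them called. Upper-quartile factors gave -0.017 for Ctsk, -0.085 for Col1a1, -0.012 for Ets2, -0.067 for Pcsk7 and -0.016 for Plaur. S100a9 had 0.42 with limma-voom. Over the libraries left out, Tek ran from -0.31 to 0.12, Etv4 from -0.075 to 1.09 and Col1a1 from -0.029 to 0.047. Deviations of same-numbered libraries correlated at -0.086, 0.055 and -0.095, which gave no sign of pairing by number. With 3 libraries per group, and knockout columns tied to their group only, whether samples were paired is not known. With a replicate block 4437 genes were called higher and 4657 lower, and no member changed its call. The cause of these changes was not tested except where the filter or divisor itself sets them.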

Other observations

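Other marker lists moved beside the metalloproteinases. Of 6 tested markers of hypertrophic chondrocytes, 1 rose and 5 fell (median log2 fold change -1.04). The bone matrix protein Spp1 rose, with 11535 ± 813 CPM in knockout cells and 2404 ± 51.4 CPM in wild-type cells. Ibsp, bone sialoprotein, fell, with 5.48 ± 0.457 and 68.1 ± 3.29 CPM. Col10a1 (-2.08), Alpl (-1.63), Pth1r (-0.46) and Runx2 (-0.20) also fell, the call of Runx2 being lost with DESeq2 (-0.19). Of 11 tested synovial and stromal fibroblast markers 6 rose and 4 fell, 1 of the rises (Dpt, 0.18) turning to -0.032 with total counts alone, with Col3a1 at 9773 ± 327 CPM in knockout cells and 5937 ± 62.2 CPM in wild-type cells. Comp, a cartilage matrix protein, fell by 0.38 on the log2 scale. Endothelial markers were low, with Plvap at 9.14 ± 0.153 CPM in knockout cells and 2.98 ± 1.12 CPM in wild-type cells. Of 5 tested, 2 were higher (Plvap and Pecam1), 1 was lower (Kdr, -2.50) and 2, among them Tek, were not called. The call of Pecam1 (1.78) was lost without CRE2 (1.49), without WT1 (1.27) and on unfiltered log2(FPKM + 1) (0.15). The osteoclast regulator Nfatc1 fell by 0.50 on the log2 scale.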
